A study of Arabidopsis thaliana with 30 samples.

Results

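The 10 genes described here build and drive the machinery that copies DNA in Arabidopsis thaliana: the helicase genes MCM2 (AT1G44900), MCM3 (AT5G46280), MCM4 (AT2G16440), MCM5 (AT2G07690), MCM6 (AT5G44635) and MCM7 (AT4G02060), the sliding clamp genes PCNA1 (AT1G07370) and PCNA2 (AT2G29570), and the licensing factor genes CDC6 (AT2G29680) and CDT1A (AT2G31270). They were taken by gene identifier from the 33498 genes of the count table, and all 10 passed the filter on low counts. RNA came from whole aerial tissue of untreated 15-day seedlings of 10 lines, 3 libraries a line and 30 in all. Of 6 F6 lines bred by recurrent selection from the C24 by Ler cross, the 3 named HM-S, HM-G and HM-W carry the submitters' name of hybrid mimics. The rest of the F6 are Sml-D, Med-F and Med-E, LerXC24 and C24XLer are the reciprocal F1 hybrids, and C24 and Ler (Landsberg erecta) are the parent accessions. The 3 libraries of each F6 line came from siblings of 1 line, and those of the parents and F1 hybrids are called biological replicates. Whether a library holds 1 plant or a pool is not given in the labels, so the p-values reflect only how much these samples spread, which may be technical.

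Before S phase, the origin recognition complex (ORC) marks start sites on DNA, and CDC6 and CDT1 then load the ring of MCM2 to MCM7 there. Once activated, that ring unwinds the double helix, and PCNA encircles the DNA and holds the DNA polymerases on it. The transcription factors of the E2F family switch on many of these genes at the start of S phase, and the retinoblastoma protein RBR holds E2F in check. In a seedling shoot the genes are used in the dividing cells of the meristem and young leaves and in cells that copy their DNA without dividing. In bulk tissue, a smaller share of such cells and less RNA in each of them cannot be told apart.

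In TAIR10.1 coordinates, MCM2 lies at chr1:16970214-16974753, PCNA1 at chr1:2263037-2264553, MCM7 at chr4:900636-905591, MCM6 at chr5:18006212-18010667 and MCM3 at chr5:18769649-18773706. The other 5 are on chromosome 2: MCM5 at chr2:3522984-3527500, MCM4 at chr2:7126279-7130729, PCNA2 at chr2:12649906-12651753, CDC6 at chr2:12689171-12693121 and CDT1A at chr2:13328862-13331831. PCNA2 and CDC6 are 37.4 kb apart. MCM7, which the annotation calls PRL after PROLIFERA, overlaps 2 other annotated genes, and PCNA2 and CDC6 overlap 1 each, so part of their counts could belong to those neighbours. Of 50-base exonic windows, 8 of 1567 (0.511%) of CDC6 occurred elsewhere in the genome and 0 of the other members. The coding sequences of PCNA1 and PCNA2 were 85.3% identical, with a longest identical run of 41 bases.

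The promoters were searched on both strands, over 250 bases before the annotated start, for the E2F words TTTCCCGC, TTTGGCGC, TTTCGCGC and TTTGCCGC. A word was present in 5 of the 10 members (50%), MCM2, MCM3, MCM4, MCM5 and MCM6, against 377 of 26694 promoters of protein-coding nuclear genes (1.41%). The windows below show those 5 matches in capitals, as read 5′ to 3′ on the strand of the gene. The word was TTTCCCGC in MCM2, MCM5 and MCM6 and TTTGGCGC in MCM3 and MCM4, on either strand. The windows are RefSeq sequence of TAIR10.1.
MCM2: caaattggcgccaataTTTCCCGCctaatc
MCM3: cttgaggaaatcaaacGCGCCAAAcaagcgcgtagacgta
MCM4: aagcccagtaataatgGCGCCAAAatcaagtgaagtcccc
MCM5: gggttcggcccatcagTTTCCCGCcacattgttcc
MCM6: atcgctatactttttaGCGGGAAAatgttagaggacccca
The MCM2 window is chr1:16970184-16970213 on the plus strand. The others are on the minus strand, MCM3 at chr5:18773853-18773892, MCM4 at chr2:7130741-7130780, MCM5 at chr2:3527501-3527535 and MCM6 at chr5:18010690-18010729. The word began 14 bases before the start in MCM2, 19 in MCM5, 35 in MCM4, 46 in MCM6 and 170 in MCM3. MCM7, PCNA1, PCNA2, CDC6 and CDT1A held none of the 4 words in this window. Only these exact words were searched, so the lack of a match does not show that a gene lacks an E2F site. A second motif, site II (TGGGCC or TGGGCT on either strand), was in 7 of the 10 members (70%) against 19.4% of all promoters, and overlapped no E2F word in any member. The 7 were MCM2 to MCM6, PCNA2 and CDT1A. A match describes the letters and is not a measured binding site.

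The libraries held 46822397 to 60757656 gene counts each, and log2 CPM of libraries of 1 line correlated at 0.983 to 0.993 across genes. Counts are given as CPM (gene counts scaled to a common library size, after TMM scaling), as mean ± SD of 3 libraries. Per kilobase of exon, over all 30 libraries, the clamp genes had the highest levels, with PCNA2 at 14.8 ± 3.76 and PCNA1 at 12.1 ± 2.45 CPM per kb. MCM3 followed at 10.4 ± 0.867, then MCM5 at 8.86 ± 1.27 and MCM7 at 8.82 ± 0.964. MCM4 had 6.51 ± 0.957 CPM per kb, MCM2 6.45 ± 1.24, CDT1A 4.85 ± 0.593 and MCM6 4.62 ± 0.774. CDC6 was the lowest at 2.8 ± 0.302 CPM per kb, and its raw counts were 259 to 430 a library, against 405 to 1949 in the other 9 genes.

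**Figure D1:**
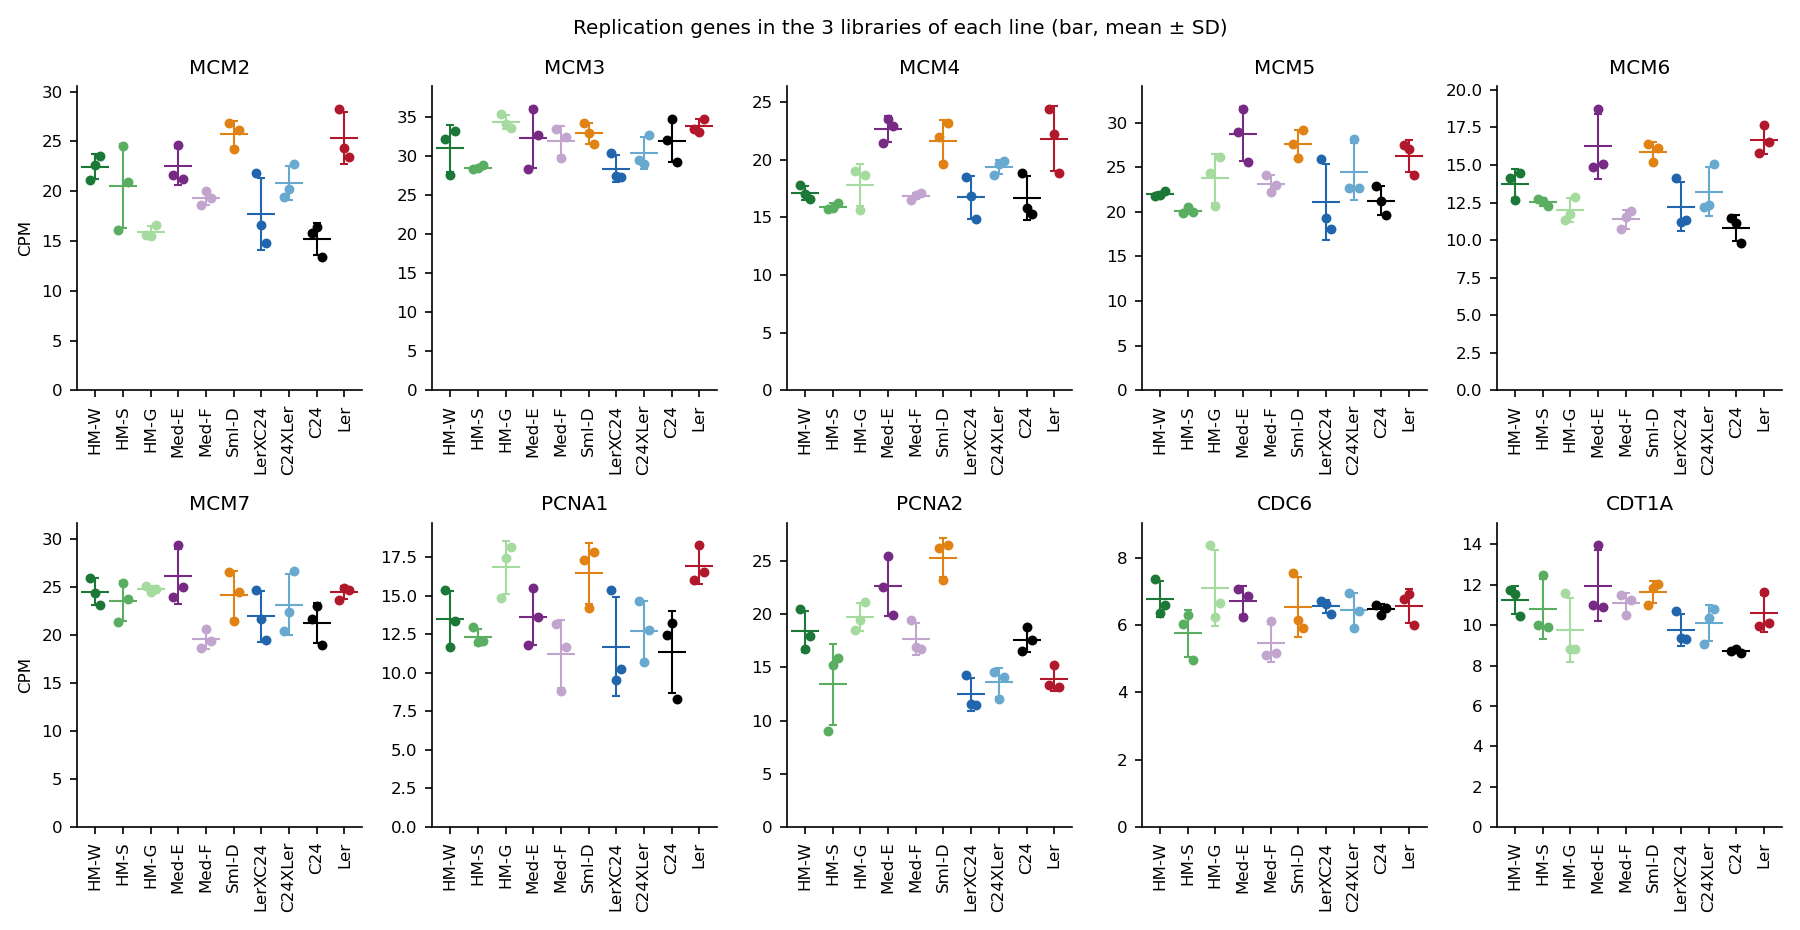
Level of each of the 10 genes (CPM, linear axis from 0) in the 3 libraries of each line; points are libraries and bars are mean ± SD. PCNA2 spans 9.06 to 26.5 CPM over the 30 libraries, while MCM3 stays within 27.3 to 36.1 CPM.

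The members differed in how far they varied between lines. The highest line mean over the lowest was 2.03 for PCNA2 (Sml-D over LerXC24), 1.69 for MCM2 (Sml-D over C24), 1.54 for MCM6 (Ler over C24) and 1.51 for PCNA1 (Ler over Med-F). It was 1.21 for MCM3 (HM-G over LerXC24) and 1.30 for CDC6 (HM-G over Med-F). A test for any difference among the 10 lines called 8 of the 10 genes, all but MCM3 and CDC6, where 65% of the 29268 genes tested were called. Calls needed a p below 0.05 after Benjamini-Hochberg adjustment over all genes tested. The adjusted p was 8.2e-06 for PCNA2, 3.46e-05 for MCM6, 0.000103 for MCM2 and 0.000134 for MCM4. For MCM5 it was 0.00271, for PCNA1 0.0139, for CDT1A 0.0336 and for MCM7 0.0389. The call of MCM7 ended without any 1 of 13 libraries (adjusted p up to 0.107, without Med-F 1), and that of CDT1A without any 1 of 5 (up to 0.0784, without C24 C). With the replicate block both calls ended, at an adjusted p of 0.0747 for MCM7 and 0.051 for CDT1A. Of the 45 pairs of lines, 22 differed for PCNA2, 19 for MCM4, 18 for MCM6 and 16 for MCM2. Only 1 pair differed for CDC6 and 4 for MCM3. These p-values were adjusted over genes and not over the 45 pairs, and the number of pairs that differ for other genes was not counted. In the single pairs named near the end, 9.7% to 36.5% of all genes were called.

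Ordered by mean, neighbouring lines mostly overlapped. MCM2 ran from Sml-D (25.7 CPM) and Ler (25.3) through Med-E (22.5), HM-W (22.4), C24XLer (20.8), HM-S (20.5), Med-F (19.3) and LerXC24 (17.7) to HM-G (15.9) and C24 (15.2), and each neighbour in that order overlapped the next. The same was true of every neighbouring pair for MCM4, MCM5, MCM7, PCNA1, CDC6 and CDT1A. One neighbouring pair was separated for MCM6, Sml-D at 15.9 ± 0.609 CPM above HM-W at 13.7 ± 0.966. For MCM3, C24XLer was separated from HM-S (30.4 ± 2.02 and 28.5 ± 0.249 CPM), and for PCNA2, C24 from Ler (17.6 ± 1.13 and 13.9 ± 1.14 CPM).

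Between the parents, 4 helicase genes and 1 clamp gene were lower in C24. MCM2, a subunit of the ring, was at 15.8, 16.4 and 13.4 CPM in C24 A, B and C, against 28.3, 24.4 and 23.4 CPM in Ler A, B and C. All C24 libraries were under all Ler libraries, and the log2 change was -0.74 ± 0.13 (± standard error throughout, adjusted p = 0.000114). MCM6 had 11.5, 11.1 and 9.81 CPM in C24 against 15.8, 17.6 and 16.6 CPM in Ler, again without overlap, and its log2 change was -0.62 ± 0.10 (adjusted p = 5.73e-05). MCM4 changed by -0.39 ± 0.10 (adjusted p = 0.00372), with 15.3 to 18.8 CPM in C24 against 18.9 to 24.4 CPM in Ler, where the 2 ranges nearly touch. MCM5 changed by -0.31 ± 0.11 (adjusted p = 0.0485), and 1 left-out library was enough to end that call: without C24 B, C24 C, Ler A or Ler B the adjusted p was 0.101, 0.182, 0.144 and 0.13. These are 5 of 10 genes lower and 0 higher, counting PCNA1 below, against 12.5% of all genes lower and 25.8% called in either direction. The median log2 change of the 10 was -0.29, beside 0.0046 over all genes tested. MCM3 (-0.08 ± 0.08) and MCM7 (-0.20 ± 0.11) were not called.

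Of the clamp genes, PCNA1 was lower in C24 and PCNA2 was not called. PCNA1 had 12.46, 13.2 and 8.28 CPM in C24 A, B and C, against 16.0, 18.3 and 16.5 CPM in Ler. Its log2 change was -0.58 ± 0.18 (adjusted p = 0.0188), and library C24 C was the lowest of all 30. Without C24 C the change was -0.40 (adjusted p = 0.139) and without Ler B -0.52 (adjusted p = 0.0726). PCNA2, in contrast, had 16.5, 18.8 and 17.6 CPM in C24 against 13.3, 15.2 and 13.2 CPM in Ler. Its libraries did not overlap either, but with C24 the higher, and the log2 change of 0.34 ± 0.15 missed the threshold (adjusted p = 0.0897). Fitted on the C24 and Ler libraries alone, PCNA2 was called (0.34, adjusted p = 0.0333) and MCM4 was not (-0.39, adjusted p = 0.0583). Whether the 2 clamp genes differ in their change was not tested. In all, 8 of the 10 genes had C24 and Ler libraries that did not overlap, against 40.5% of all genes tested.

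Neither licensing factor gene was called between the parents. CDC6 had 6.61, 6.30 and 6.50 CPM in C24 against 6.77, 6.92 and 5.99 CPM in Ler, which overlap (log2 change -0.02 ± 0.12, adjusted p = 0.929). CDT1A had 8.70, 8.82 and 8.63 CPM in C24 against 9.97, 11.6 and 10.13 CPM in Ler, with no overlap, and changed by -0.28 ± 0.12 (adjusted p = 0.0784).

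Other genes of DNA replication were called in C24 to different degrees by list, where 12.5% of all genes were lower and 13.3% higher. Of 31 replisome genes (GINS, CDC45, polymerases, clamp loader, single-strand binding proteins and ligase), 14 fell and 1 rose, with a list median of -0.25. The DNA ligase gene LIG1 was at 28.7 ± 1.17 CPM in C24 and 43.9 CPM in Ler (log2 change -0.61 ± 0.08, adjusted p = 5.16e-06). TTN10, also annotated as the GINS subunit PSF3 and overlapping another gene, was at 1.93 ± 0.335 CPM in C24 and 8.14 CPM in Ler (-2.07 ± 0.18, adjusted p = 2.6e-09). The exception in direction was POLD4, the small subunit of polymerase delta (0.33 ± 0.09, adjusted p = 0.0115). Of 8 genes for histone H3.1 and the chromatin assembly factor CAF-1, 5 fell and 0 rose (median -0.60), among them the CAF-1 gene FAS2 at 14.9 ± 0.756 CPM in C24 and 26.8 CPM in Ler (-0.84 ± 0.09). The H3.1 gene AT5G10400 changed by -0.71 ± 0.13, and since the H3.1 genes are close copies their separate counts are uncertain.

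Against the same 12.5% lower and 13.3% higher over all genes, 9 of 16 mitosis genes fell and 1 rose (median -0.42), with the cytokinesis syntaxin gene SYP111, also called KNOLLE, at -0.94 ± 0.12 and the Aurora kinase gene AUR2 at -0.84 ± 0.09. The mitotic kinase gene CDKB1;2 rose by 0.91 ± 0.23, and all 3 overlap another counted gene. Of 7 nucleotide supply genes, 2 fell, the dUTPase gene DUT1 (-1.004 ± 0.13) and the thymidine kinase gene TK1a (-0.53 ± 0.13), and the list median was -0.02. In origin licensing 1 of 9 fell, near the share of all genes: ORC5 (-0.51 ± 0.11, adjusted p = 0.00128). The 15 genes of E2F, RBR and the D-type cyclins split, with 2 rising (CYCD4;1 0.49 ± 0.15 and DEL2 0.29 ± 0.09) and 2 falling (DEL1 -0.46 ± 0.15 and RBR1 -0.27 ± 0.10). Of 12 endocycle and CDK inhibitor genes, LGO rose (0.71 ± 0.18), and KRP6 (-1.28 ± 0.18) and CCS52A2 (-0.52 ± 0.16) fell.

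**Figure D2:**
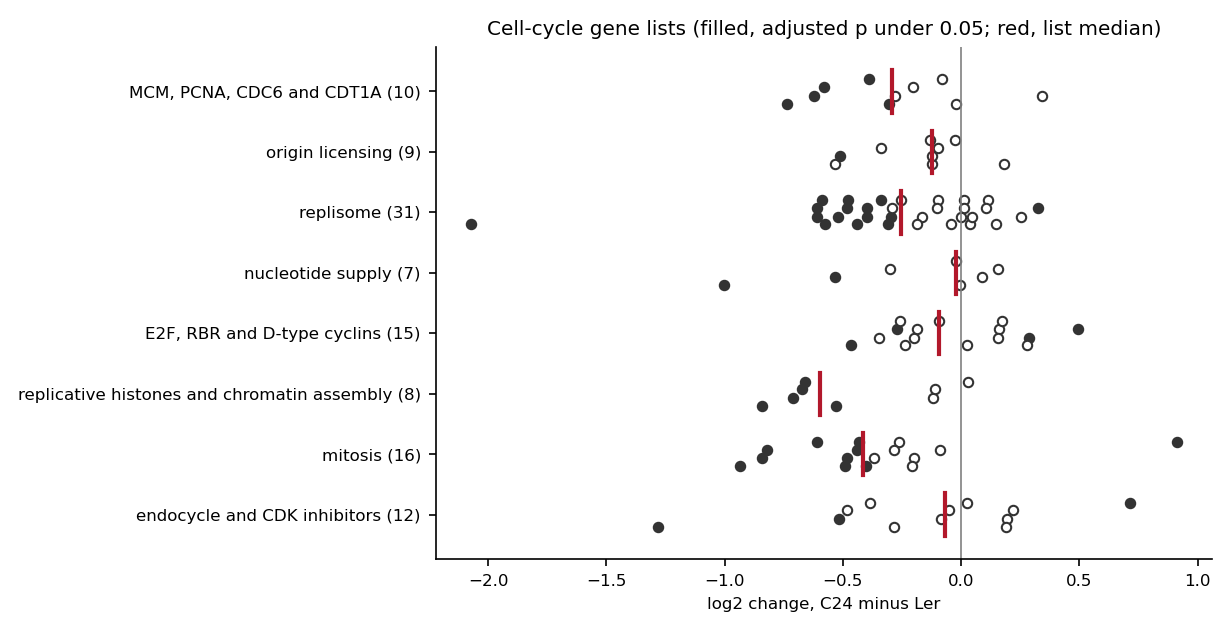
Log2 change of each gene in C24 minus Ler, by gene list (number of genes in brackets); filled points passed the test at an adjusted p under 0.05, open points did not, and red bars are list medians. The medians run from -0.60 for the histone and chromatin assembly list to -0.02 for nucleotide supply.

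Markers of other cell types also differed between these parents, where 12.5% of all genes were lower in C24 and 13.3% higher. All 5 floral organ markers (AP1, AP3, PI, AG and SEP3) fell in C24, where they summed to 8.73 ± 0.247 CPM (8.48 to 8.98), against 22.1 ± 5.92 CPM in Ler (16.1 to 28.0). The 5 shoot meristem markers summed to 14.9 ± 4.29 CPM in C24 (10.5 to 19.0) and 21.1 ± 3.08 CPM in Ler (17.7 to 23.5), and 0 of 5 passed the test. Of the 5 root markers, 3 rose, with sums of 240 ± 27.5 CPM in C24 and 73.1 ± 19.3 CPM in Ler, although only aerial tissue was sampled. Stomatal lineage markers summed to 52.9 ± 2.42 CPM in C24 and 74.2 ± 6.21 CPM in Ler, with 2 of 4 falling. None of these markers was under 0.1 CPM in any line, and the 7 photosynthesis markers, which define the labelled tissue, summed to between 35810 (Med-F) and 48820 CPM (HM-G) by line. Of those 7, 1 was lower in C24 than in Ler, LHCA3, and 0 were higher. The part of these markers in the replication gene differences was not tested.

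A measure of clock phase also differed between the lines, in part alongside the helicase genes. A clock index was taken for each library as the mean log2 CPM of 5 evening genes (TOC1, LUX, ELF4, GI and BOA) minus that of 5 morning genes (PRR9, LNK1, RVE8, CCA1 and LHY). Its line means were lowest in Med-E (-2.35), Sml-D (-1.97) and Ler (-1.78), and highest in LerXC24 (-0.125), HM-W (-0.248) and HM-S (-0.391), with C24 at -1.01. The summed CPM of MCM2 to MCM7 was highest in those first 3 lines, at 149 ± 13.5 in Med-E, 148 ± 7.44 in Sml-D and 148 ± 5.41 in Ler. It was lowest in C24 (117 ± 9.41), LerXC24 (118 ± 15.4) and HM-S (121 ± 6.66). The order was not the same throughout: HM-W, with the second highest index, had a sum of 131 ± 4.01 CPM, above HM-G (129 ± 5.67) and Med-F (122 ± 1.082), whose indices were lower, at -0.808 and -0.715. C24, with the lowest sum, had a lower index than all 3 of these lines. Within lines, the library with the highest index had the lowest sum of its line in 4 of the 10 lines (C24, Ler, LerXC24 and HM-S), the middle one in 3 and the highest in 3. The labels give no harvest time. With the index as a covariate, 2 of the 5 parental calls held, MCM2 and MCM6, at log2 changes of -0.57 and -0.55. That fit also called fewer of all genes outside the parental range. Genes above both parents went from 873 to 73 in HM-W, 630 to 18 in LerXC24 and 263 to 118 in Sml-D. The share of all genes called in each comparison with the index is not given here. Of 9 member calls against the mid-parent in the derived lines, 1 held with the index as a covariate, PCNA2 in Sml-D (0.64, adjusted p = 0.00417). The log2 changes of the other 8 were smaller to different degrees. They stayed near their size for PCNA2 in Med-E (0.45 with the index, 0.53 without) and for MCM3 in LerXC24 and in HM-S (-0.18 with it in both, -0.21 without). For MCM4 they were 0.09 with the index and 0.25 without in Med-E, and -0.09 and -0.26 in HM-S.

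**Figure D3:**
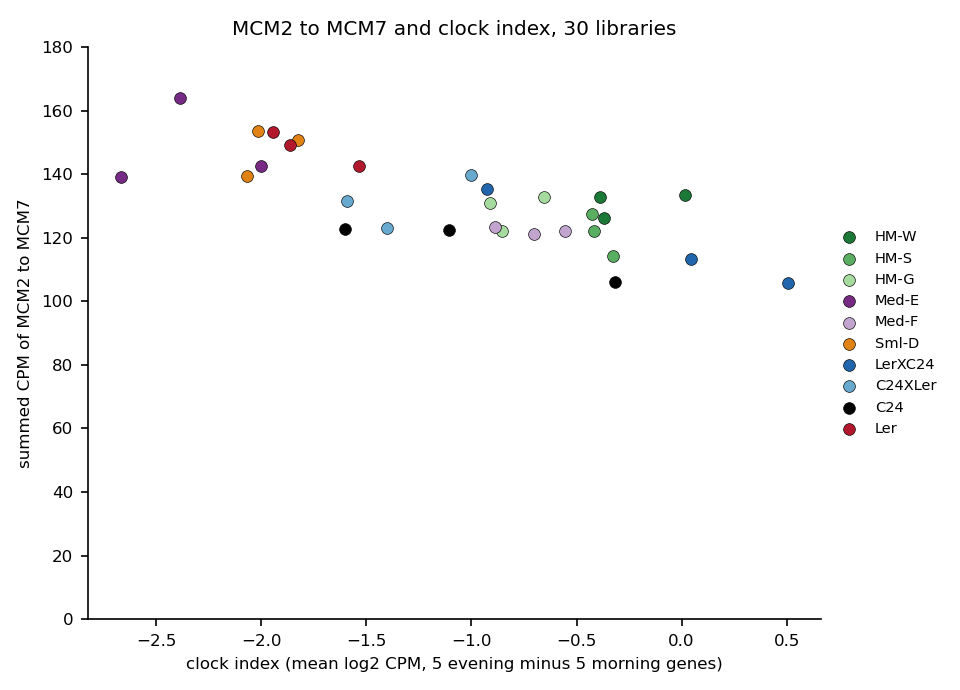
Summed CPM of MCM2 to MCM7 in each of the 30 libraries (vertical axis, from 0) against the clock index of the library (horizontal axis, log2 units; higher means evening genes are higher relative to morning genes). The Med-E, Sml-D and Ler libraries lie at the left with sums of 139 to 164 CPM, a range that library C24XLer C (139.7 CPM) also reaches. Libraries C24 A (122.7 CPM) and C24XLer B (131.7 CPM) lie further left than Ler C, with sums under that range. The lowest sum, 106 CPM, belongs to LerXC24 C at the right.

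In the F1 hybrids few members were called against the mid-parent, which averages both parents' log-scale coefficients. Over both hybrids 0 of 10 genes were called by edgeR, DESeq2 or limma, against 11.5% of all genes tested, and 2 had an unadjusted p under 0.05. These were MCM3 (-0.16 ± 0.06, adjusted p = 0.0736) and PCNA2 (-0.27 ± 0.10, adjusted p = 0.0923). Without C24 C or without LerXC24 A, MCM3 was called (-0.19 in both, adjusted p = 0.0389 and 0.048). C24XLer alone had 0 of 10 called by all 3 tools, with 2.34% of all genes called, and 0 at an unadjusted p under 0.05. LerXC24 had 1 of 10, MCM3, where 16.5% of all genes were called and 6.32% were lower.

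MCM3 was at 30.3, 27.5 and 27.3 CPM in LerXC24 A, B and C, against 29.2 to 34.7 CPM in C24 and 33.1 to 34.8 CPM in Ler. The LerXC24 range reached into that of C24, and the log2 change of -0.21 ± 0.07 (adjusted p = 0.0484) was lost without any 1 of 7 of the 9 libraries (adjusted p up to 0.211, without LerXC24 C) and with the replicate block (adjusted p = 0.0663). MCM3 was also lost in limma with an arithmetic mid-parent (adjusted p = 0.0511) and with only the compared lines fitted (adjusted p = 0.0685). In that last fit PCNA2 was called instead (-0.34, adjusted p = 0.0444). LerXC24 A stood above the other 2 LerXC24 libraries in all 10 genes. Without it, 4 of 10 genes were lower than the mid-parent: MCM3, MCM5 (-0.34, adjusted p = 0.0172), PCNA1 (-0.49, adjusted p = 0.041) and PCNA2 (-0.44, adjusted p = 0.0396). The 6.32% of all genes lower belongs to the fit with LerXC24 A, and the share without it is not given here.

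Set against each other, LerXC24 and C24XLer differed at 0 of 10 genes by all 3 tools, where 4.91% of all genes differed, and 1 gene, MCM4, had an unadjusted p under 0.05. MCM4 was at 18.5, 16.9 and 14.8 CPM in LerXC24 against 18.7, 19.6 and 19.9 CPM in C24XLer, a log2 change of -0.21 ± 0.10 (adjusted p = 0.225). Leaving out LerXC24 A brought 2 calls, MCM2 (-0.41, adjusted p = 0.0454) and MCM5 (-0.39, adjusted p = 0.0212), and the share of all genes called in that fit is not given here.

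Against Ler alone, which the 2 hybrids share as a parent and which also enters the mid-parent, LerXC24 was lower at 6 of 10 genes, where 12% of all genes were lower. MCM2 had 21.8, 16.6 and 14.8 CPM in LerXC24 against 23.4 to 28.3 CPM in Ler (-0.52 ± 0.13, adjusted p = 0.00446), and PCNA1 changed by -0.53 ± 0.18. Against C24 the hybrid was lower at PCNA2 only (-0.50 ± 0.15, adjusted p = 0.0255, with 6.26% of all genes lower). C24XLer was lower than Ler at MCM6 (-0.33 ± 0.10, with 5.1% of all genes lower) and higher than C24 at MCM2 (0.45 ± 0.13, with 5.35% of all genes higher).

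**Figure D4:**
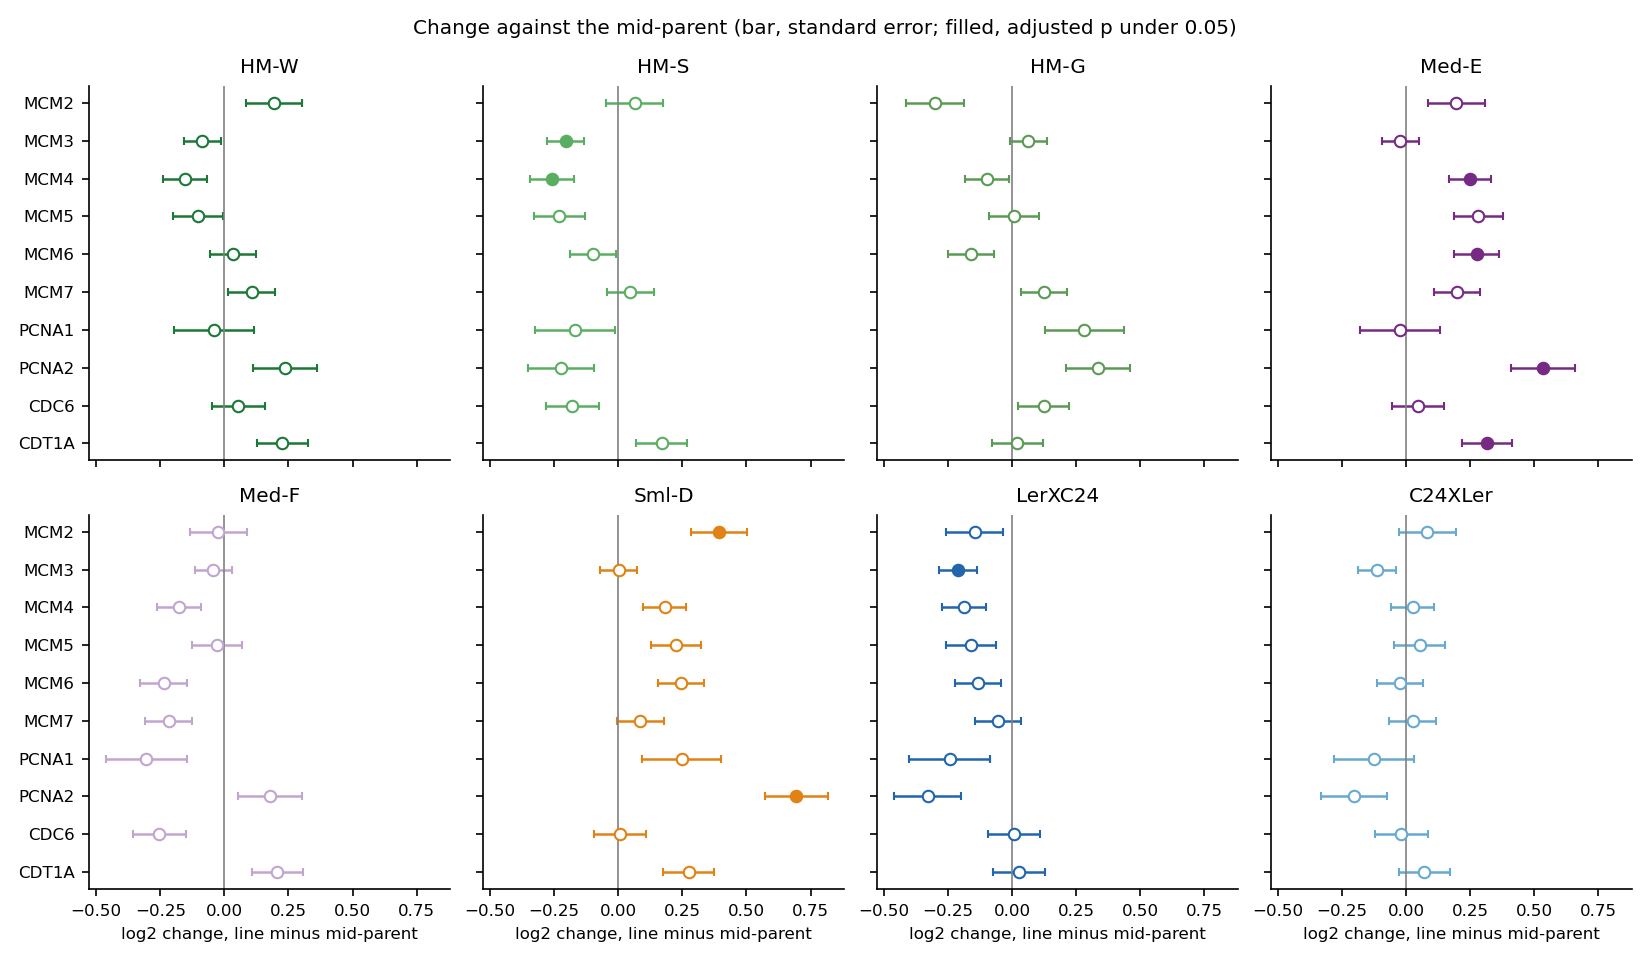
Log2 change of each gene in the 6 F6 lines and the 2 F1 hybrids against the mid-parent, with standard errors; filled points passed the test at an adjusted p under 0.05. Filled points lie to the right in Med-E (4 genes) and Sml-D (2 genes) and to the left in HM-S (2 genes) and LerXC24 (1 gene).

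All comparisons with the mid-parent share the 6 parental libraries, so they are not independent of each other. Sml-D had the highest PCNA2 of all lines. Its siblings 1, 2 and 3 had 26.2, 23.2 and 26.5 CPM, against 16.5, 18.8 and 17.6 CPM in C24 and 13.3, 15.2 and 13.2 CPM in Ler. The lowest Sml-D library was above the highest parental one. The log2 change was 0.69 ± 0.12 against the mid-parent (adjusted p = 0.000377), 0.52 ± 0.15 against C24 (adjusted p = 0.0139) and 0.87 ± 0.15 against Ler (adjusted p = 0.000148). The call against the mid-parent held in every alternative run, with a change of 0.64 to 0.75. PCNA2 in Sml-D was also the only member outside the range of the parents in any derived line, called against both in 1 direction, where 0.899% of all genes were above both parents in Sml-D. With the clock index as a covariate that count was 0, and 118 of all genes were above both parents in Sml-D, against 263 without the index.

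MCM2 was also higher in Sml-D, at 26.8, 24.3 and 26.2 CPM, against 13.4 to 16.4 CPM in C24 and 23.4 to 28.3 CPM in Ler, so that Sml-D lay at the level of Ler. The change against the mid-parent was 0.39 ± 0.11 (adjusted p = 0.0174), and it was lost without Sml-D 1 (0.36, adjusted p = 0.08) or Sml-D 3 (0.38, adjusted p = 0.0675). These 2 genes were called higher and 0 lower, where 6.73% of all genes were higher and 13.1% called. Of the others, CDT1A (0.27 ± 0.10, adjusted p = 0.0674) and MCM6 (0.24 ± 0.09, adjusted p = 0.068) came nearest to the threshold, and the median of the 10 was 0.24, beside -0.00065 over all genes. Against C24, 7 of the 10 were higher, where 8.02% of all genes were higher, and against Ler only PCNA2, where 6.17% were.

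Histone genes were high in the same line, where 6.73% of all genes were higher and 6.37% lower: 5 of 8 genes of the H3.1 and CAF-1 list rose and FAS2 fell (-0.24 ± 0.08), with AT5G65360 at 106 ± 4.67 CPM in Sml-D and 66.2 CPM in the parents (0.68 ± 0.09, adjusted p = 1.09e-05). The dUTPase gene DUT1 rose by 0.94 ± 0.11 and TSO2, a ribonucleotide reductase subunit, by 0.49 ± 0.14. DEL1, an E2F relative that holds back the endocycle, rose by 0.61 ± 0.12 (adjusted p = 0.00144) and RBR1 by 0.25 ± 0.08, while DEL2 fell by 0.40 on the log2 scale. Of 31 replisome genes only POLD4 rose (0.36 ± 0.08) and only TTN10 fell (-1.13 ± 0.16). ORC5 fell by 0.42 (adjusted p = 0.00539). The mitosis list had 2 of 16 rising, CDKB1;2 (0.83 ± 0.19) and CDC20.2 (0.47 ± 0.10), and the endocycle list 3 of 12, with KRP6 at 0.94 ± 0.15 and CCS52A2 at 0.55 ± 0.14. Floral organ markers summed to 34.6 ± 6.53 CPM in Sml-D (29.3 to 41.9), above the 22.1 ± 5.92 CPM of Ler, with 1 of 5 called (SEP3), and shoot meristem markers to 25.7 ± 3.6 CPM with 0 of 5 called. The same floral and meristem markers summed to 25.0 ± 4.42 and 26.35 ± 4.05 CPM in Med-F, where the MCM2 to MCM7 sum was 122 CPM. In Med-E they summed to 12.8 ± 1.75 and 15.8 ± 3.17 CPM, beside an MCM2 to MCM7 sum of 149 CPM. The part of these markers in the replication gene differences was not tested.

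Med-E was the line with the most members called. Against the mid-parent, 4 of 10 were higher and 0 lower, where 7.5% of all genes were higher and 14.6% called. PCNA2 was at 22.6, 25.5 and 19.9 CPM in siblings 1, 2 and 3, against 13.2 to 18.8 CPM in the parents, without overlap, a log2 change of 0.53 ± 0.12 (adjusted p = 0.00409). CDT1A had 10.99, 13.97 and 10.9 CPM against 8.63 to 11.6 CPM in the parents (0.32 ± 0.10, adjusted p = 0.0321). MCM6 changed by 0.28 ± 0.09 (adjusted p = 0.0363) and MCM4 by 0.25 ± 0.08 (adjusted p = 0.0455), while MCM5, at 0.28 ± 0.10, just missed (adjusted p = 0.0513). Sibling Med-E 2 was the highest of the 3 for 9 of the 10 genes. Without it 0 of 10 were called, with PCNA2 at 0.44 (adjusted p = 0.0544), CDT1A at 0.19 (0.332), MCM6 at 0.16 (0.359) and MCM4 at 0.22 (0.19). The share of all genes called without Med-E 2 is not given here. Leaving out C24 C or Ler C kept only PCNA2, and Ler A only PCNA2 and MCM4. MCM4 also missed the threshold without any other 1 of C24 B, Ler B, Med-E 1 and Med-E 3 (adjusted p = 0.0606 to 0.125), with DESeq2 size factors (0.0504) and with no filter on low counts (0.0508). With only the compared lines fitted, PCNA2 alone stayed called, and MCM4 (adjusted p = 0.124), MCM6 (0.0817) and CDT1A (0.0597) were lost.

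Against C24, 6 of 10 genes were higher in Med-E, where 9.07% of all genes were higher, and against Ler only PCNA2 (0.70 ± 0.15, adjusted p = 0.00151), where 6.56% were. In the wider lists, read against 7.5% of all genes higher and 7.06% lower than the mid-parent, the polymerase alpha B subunit gene POLA2 (0.42 ± 0.10), POLD4 (0.38 ± 0.08) and 1 more of 31 replisome genes rose, and TTN10 fell (-1.46 ± 0.17). RBR1 rose by 0.32 ± 0.08, and DEL2 and CYCD3;2 fell. FAS2 rose by 0.50 ± 0.07 and DUT1 by 0.60 ± 0.11. In the endocycle list 4 of 12 rose, among them ICK3 (0.73 ± 0.18) and CCS52A2 (0.61 ± 0.14), and AT2G32710, a KIP-related inhibitor gene, fell.

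HM-S had 2 of 10 genes lower than the mid-parent and 0 higher, where 14.4% of all genes were lower and 29.5% called. MCM3 was at 28.3, 28.4 and 28.8 CPM in siblings 1, 2 and 3, against 29.2 to 34.7 CPM in C24 and 33.1 to 34.8 CPM in Ler, and changed by -0.21 ± 0.07 (adjusted p = 0.0366). All HM-S libraries lay just below the lowest parental one. MCM4 was at 15.7, 15.8 and 16.3 CPM, within the C24 range of 15.3 to 18.8 CPM and under the Ler range of 18.9 to 24.4 CPM (-0.26 ± 0.09, adjusted p = 0.024). Both calls were lost without any single HM-S library, where adjusted p ran from 0.0503 to 0.101, and also without C24 A or Ler A. MCM3 was also lost without C24 B or Ler C (adjusted p = 0.0858 and 0.0629). The replicate block ended the call of MCM3 (adjusted p = 0.0536). With only the compared lines fitted, MCM4 was lost (adjusted p = 0.0736) and MCM5 was called (-0.23, adjusted p = 0.0372). Among markers in HM-S, 3 of 7 photosynthesis markers fell (CAB2, LHCB3 and LHCB6), with summed levels of 36910 to 41040 CPM in HM-S, against 42710 to 47080 CPM in C24 and 41080 to 48590 CPM in Ler. AP1, WUS and TMM fell too, 1 of 5 floral organ, 1 of 5 shoot meristem and 1 of 4 stomatal markers, and their part in these differences was not tested. HM-S 1 had the lowest PCNA2 of all 30 libraries, 9.06 CPM, beside 15.2 and 15.9 CPM in its siblings. PCNA2 changed by -0.22 ± 0.13 against the mid-parent with it and by -0.01 without it. Against C24, with HM-S 1 included, PCNA2 was lower (13.5% of all genes lower), and MCM2 and CDT1A were higher (12.8% higher). Against Ler, MCM3, MCM4, MCM5 and MCM6 were lower, where 13.8% of all genes were lower.

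In HM-W and HM-G, 0 of 10 genes were called by edgeR, DESeq2 or limma against the mid-parent on the log scale, where 24.7% and 13.4% of all genes were. At an unadjusted p under 0.05 there was 1 in HM-W, CDT1A (0.23 ± 0.10, adjusted p = 0.0976), and 2 in HM-G, MCM2 (-0.30 ± 0.11) and PCNA2 (0.33 ± 0.12), both with an adjusted p of 0.0796. MCM2 was at 15.6, 15.5 and 16.6 CPM in HM-G, at the level of C24 (13.4 to 16.4 CPM) and below Ler (23.4 to 28.3 CPM), a log2 change of -0.67 ± 0.13 against Ler (adjusted p = 0.000498). MCM2 was called in HM-G without C24 C (-0.35, adjusted p = 0.0433) and in limma with an arithmetic mid-parent (-0.34, adjusted p = 0.0435). With only the compared lines fitted, MCM2 (-0.31, adjusted p = 0.0421) and PCNA2 (0.33, adjusted p = 0.0163) were called. PCNA1 in the same line, at 14.9, 17.4 and 18.2 CPM, was at the level of Ler and higher than C24, the only 1 of 10 called against C24, where 4.27% of all genes were higher.

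Med-F had 0 of 10 called by edgeR, DESeq2 or limma against the mid-parent on the log scale, where 22.7% of all genes were, and 5 with an unadjusted p under 0.05. CDC6 was at 5.12, 6.10 and 5.16 CPM in its siblings, its lowest line mean (-0.25 ± 0.10, adjusted p = 0.0777), and without Med-F 2 it was called (-0.35, adjusted p = 0.035). MCM7 was at 18.7, 20.7 and 19.4 CPM, also its lowest line mean (-0.22 ± 0.09, adjusted p = 0.0886). Without C24 C, MCM6 (-0.27, adjusted p = 0.0376) and MCM7 (-0.26, adjusted p = 0.0497) were called, and MCM6 also in limma with an arithmetic mid-parent (-0.27, adjusted p = 0.0324). Against Ler, 5 of 10 genes were lower, MCM2, MCM4, MCM6, MCM7 and PCNA1, where 10.9% of all genes were lower. Against C24, CDT1A was higher, where 10.2% of all genes were higher. Of the markers, 4 of 5 floral organ markers rose against the mid-parent (AP1, AP3, PI and SEP3), with 12.9% of all genes higher. In the other direction, 3 of 4 stomatal, 3 of 7 photosynthesis and 1 of 5 root markers fell, with 9.87% of all genes lower. What these markers contribute was not tested.

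No member was called between the 3 hybrid mimics and the other 3 F6 lines. With the line as the replicate and sibling counts summed, 0 of 10 genes were called by edgeR or DESeq2, 0 had an unadjusted p under 0.05, and 1.48% of 29951 genes tested were called. MCM5 was at 22.0 CPM in the mimics and 26.5 CPM in the other F6 lines (-0.27 ± 0.12, adjusted p = 0.261), and PCNA2 at 17.2 and 21.9 CPM (-0.34 ± 0.19, adjusted p = 0.368). When line coefficients with sibling libraries as replicates were averaged instead, 5 of 10 were lower in the mimics, MCM2, MCM4, MCM5, MCM6 and PCNA2, where 22.6% of all genes were lower. That fit counts siblings of 1 line as independent, which the comparison of line groups does not. Among the wider lists, TTN10 (1.73 ± 0.24, adjusted p = 0.031) and SYP111 (0.56 ± 0.09, adjusted p = 0.0432) were higher in the mimics and POLD4 lower (-0.70 ± 0.10, adjusted p = 0.0353).

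The ratio of the clamp genes also differed by line. Log2 PCNA2 over PCNA1, in CPM, was -0.27, -0.27 and -0.33 in Ler A, B and C, the only line with all 3 libraries below 0. It was 0.41, 0.51 and 1.09 in C24, where C24 C is the library with the low PCNA1. Among the F6 lines the mean was 0.73 ± 0.20 in Med-E, 0.68 ± 0.23 in Med-F, 0.63 ± 0.07 in Sml-D, 0.46 ± 0.06 in HM-W, 0.23 ± 0.08 in HM-G and 0.08 ± 0.51 in HM-S (SD, n = 3 each). Every library of HM-W, Med-E, Med-F and Sml-D was above every F1 library, and the F1 means were 0.12 ± 0.20 in LerXC24 and 0.10 ± 0.09 in C24XLer. The exonic lengths are 1130 bases for PCNA1 and 1183 for PCNA2, which shifts all lines by the same amount. The ratio was not tested.

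**Figure D5:**
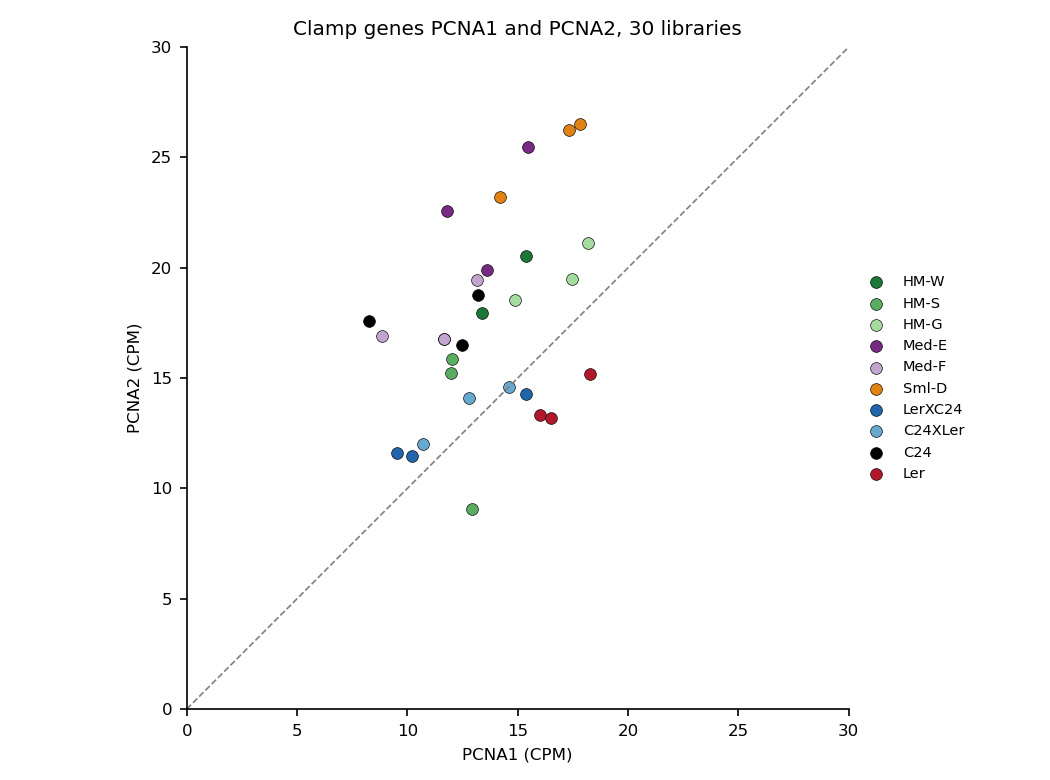
PCNA2 against PCNA1 (CPM, both axes from 0) in the 30 libraries; the dashed line marks equal CPM. The 3 Ler libraries lie below the line at 16.0 to 18.3 CPM of PCNA1, and the Sml-D and Med-E libraries, at 19.9 to 26.5 CPM of PCNA2, lie above all 6 parental libraries.

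For the 5 genes that were lower in C24, each derived line can be placed on the way from C24, at the start, to Ler, at the end, as a percent of the log2 difference. MCM2 lay at 9.71% in HM-G, 28.3% in LerXC24, 47.4% in Med-F, 56.5% in HM-S, 61.5% in C24XLer, 76.6% in HM-W, 76.8% in Med-E and 104% in Sml-D. HM-G was nearer C24 for MCM2 and nearer Ler for PCNA1 (98%), both on chromosome 1. Sml-D was nearer Ler for all 5 genes (89.4% to 124%), and Med-E for the 4 MCM genes (76.8% to 141%) but not for PCNA1 (47.5%). LerXC24 was nearer C24 for all 5 (-7.60% to 28.3%). The positions carry the error of the parents' difference, which for MCM5 was -0.31 ± 0.11.

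Across the 10 line means, MCM2, MCM4, MCM5 and MCM6 varied together, with Pearson correlations of log2 CPM of 0.633 to 0.964 (median 0.840) in their 6 pairs. Within lines, after the line means were removed, the same pairs had 0.409 to 0.689, and MCM7 reached 0.733 with MCM6 and 0.725 with MCM2. The points share libraries, depth and scaling, so these values are descriptions. Over all 15 pairs of MCM2 to MCM7 the correlation ran from 0.149 (MCM2 and MCM3) to 0.964 (MCM4 and MCM5) across lines and from 0.202 to 0.733 within them. PCNA1 with the MCM genes gave 0.485 to 0.735 and PCNA2 0.203 to 0.631. CDC6 ran from -0.0175 to 0.676 across lines and from -0.0378 to 0.282 within them.

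The genes most like the mean MCM2 to MCM7 profile over the 10 lines, among 13518 genes averaging at least 10 CPM, were BARD1, a partner in recombination repair (r = 0.951), NUC-L1, a nucleolin of ribosomal RNA production (0.944), and the mitochondrial chaperone gene MTHSC70-2 (0.943). CYTC-2 for cytochrome c (0.939), BI1, a cell death suppressor (0.937), CCoAOMT1 of lignin synthesis (0.936) and the polymerase alpha B subunit gene POLA2 (0.932) came next, before EXPB3, scpl46 and AT3G07090 (0.927 to 0.929). POLA2 is the only 1 of the 10 in a replication list. Of the members, MCM4 (0.952), MCM6 (0.938) and MCM5 (0.926), which are part of that profile, were nearest. PCNA1 (0.78), which is not part of it, came before MCM2 (0.777) and MCM7 (0.733), which are. CDT1A was at 0.615, MCM3, also part of the profile, at 0.605, and PCNA2 at 0.507, rank 2329.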

How the data were processed

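Gene counts for 30 RNA-seq libraries were analysed as deposited by the authors: whole-number read counts per gene, not normalized. The submitters' processing notes name TAIR10, FastQC and DESeq, without versions or roles. Aligner, counter and strand setting: not given in the sources used here. All 10 members and the gene lists were chosen with earlier results of these data known.

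Genes passing filterByExpr (minimum count 10) were tested, 29268 of 33498. edgeR 4.0.16 (R 4.3.3) quasi-likelihood tests with TMM scaling (factors 0.943 to 1.08) were fitted on all 10 lines, with a common dispersion of 0.021. P-values were adjusted by Benjamini-Hochberg over all genes tested, and 0.05 was the threshold. Mid-parent values averaged both parents' coefficients. Hybrid mimics were compared with the other F6 lines with sibling counts summed, 3 lines against 3. Log2 CPM used a prior count of 2. The fits were tested on simulated data. Alternatives were DESeq2 1.42.0 and its size factors, limma 3.58.1, no filter, only the compared lines, an arithmetic mid-parent, a replicate block, the clock index as a covariate, and each library left out.

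All 10 members were described. Of each list and comparison, the called genes of at least 1 CPM with the 2 largest rises and 2 largest falls were named, and the 10 other genes of at least 10 CPM most like the mean MCM2 to MCM7 profile. Sequences and positions came from TAIR10.1, to which 32742 gene identifiers matched. Depth was 46822397 to 60757656 gene counts a library, and the members had 259 to 1949 counts a library.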

Additional observations from a re-analysis of the deposited data

Results flagged for a closer look

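For 9 of the 10 genes, 2 derived lines differed when set against the same mid-parent, by a direct test of the pair. For each gene the pair is the one with the largest log2 change among those called of the 28 pairs of derived lines, so the values describe pairs picked for their size. The p-values were adjusted over genes and not over the 28 pairs. How many of all genes have such a pair was not counted, while 65% were called for any difference among the lines. MCM3 and CDC6 are among the 9, although that test for any difference did not call them. CDT1A gave none.

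PCNA2 was higher in Sml-D than in LerXC24 by 1.02 ± 0.15 (log2, adjusted p = 1.7e-05, 31% of all genes called between these lines). MCM2 was lower in HM-G than in Sml-D (-0.694 ± 0.13, adjusted p = 0.00026, 26% of all genes). MCM4 (-0.509 ± 0.097, adjusted p = 0.00023) and MCM5 (-0.512 ± 0.11, adjusted p = 0.001) were lower in HM-S than in Med-E, where 36.5% of all genes were called. MCM6 (0.513 ± 0.1, adjusted p = 0.00059) and MCM7 (0.415 ± 0.1, adjusted p = 0.0045) were higher in Med-E than in Med-F, where 27.3% were. PCNA1 (0.587 ± 0.18, adjusted p = 0.021) and CDC6 (0.376 ± 0.12, adjusted p = 0.023) were higher in HM-G than in Med-F, where 22.7% were. MCM3 was higher in HM-G than in LerXC24 (0.274 ± 0.084, adjusted p = 0.039, 9.7% of all genes). This call ended with the replicate block (adjusted p = 0.0573) and without any 1 of HM-G 1, 2 or 3, LerXC24 B or LerXC24 C (adjusted p = 0.0791 to 0.139).

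The call of CDC6 ended without HM-G 1 (0.24, adjusted p = 0.185), Med-F 1 (0.33, adjusted p = 0.1) or Med-F 3 (0.34, adjusted p = 0.0879), and that of PCNA1 without HM-G 2 (0.56, adjusted p = 0.0616), HM-G 3 (0.53, adjusted p = 0.0758) or Med-F 2 (0.44, adjusted p = 0.106). With the clock index as a covariate, the log2 change was -0.01 for MCM5 (adjusted p = 0.99) and -0.18 for MCM4 (adjusted p = 0.609), and 0.35 for MCM6 (adjusted p = 0.261) and 0.22 for MCM7 (adjusted p = 0.529). MCM2 (-0.44, adjusted p = 0.0834), PCNA2 (0.87, adjusted p = 0.0858) and MCM3 (0.26, adjusted p = 0.101) also missed the threshold with it.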

How the results depend on the processing

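No called value changed sign in any alternative run. Counts of members called moved as follows. With the clock index as a covariate, 4 were called among lines (8 without it), 2 for C24 against Ler (5), 0 for LerXC24 (1), 0 for HM-S (2), 0 for Med-E (4) and 1 for Sml-D (2) against the mid-parent, and 0 outside the parental range (1), while the log2 change of some lost calls stayed near its size (PCNA2 in Med-E 0.45, 0.53 without the index). Over all genes, too, fewer were outside the parental range with the index, such as 118 above both parents in Sml-D (263 without it). With an arithmetic mid-parent in limma, LerXC24 had 0, HM-G 1, Med-E 2 and Med-F 1. With only the compared lines, HM-G had 2, Med-E 1 and Sml-D 3. In that setting 6 of 14 member calls were lost and 6 were gained, so some counts stayed while the genes changed. LerXC24 lost MCM3 and gained PCNA2, and HM-S lost MCM4 and gained MCM5. With line coefficients averaged, the hybrid mimics differed from the other F6 lines at 5. With a replicate block, 6 were called among lines, 0 for LerXC24 and 1 for HM-S, and in Med-E MCM5 was gained and MCM6 lost. The labels do not say that a number marks a shared batch. Same-numbered libraries of parents and F1 hybrids correlated over 0.1 in 7 of 18 pairs (mean r 0.085), against 5 of 36 differently numbered pairs (mean r -0.0423), and those of F6 lines in 4 of 45 against 11 of 90. Not every pair passed 0.1, and the main fits did not pair the samples by number. These correlations do not settle whether a number marks a shared batch. With the replicate block, 5 of 22 member calls were lost and 1 was gained. DESeq2 and limma, with the mid-parent on the log scale, kept all 22 member calls. Leaving out each library in turn gave 6 to 9 among lines, 3 to 5 for C24 against Ler, 0 to 1 for the F1 hybrids, 0 to 2 for LerXC24 against C24XLer, and against the mid-parent 0 to 4 for LerXC24, 0 to 2 for HM-S, 0 to 1 for HM-G, 0 to 5 for Med-E, 0 to 2 for Med-F and 1 to 3 for Sml-D. The shares of all genes called with a library left out are not given here, and the cause of these changes was not tested. With 3 libraries a line, what was called depended on the spread of the gene as well as on its change. Some changes near 0.2 on the log2 scale were called, such as MCM3 in LerXC24, while PCNA2 at 0.34 between C24 and Ler was not. CDC6 had the lowest counts.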
